A study of Mus musculus with 50 samples.

Results

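A set of 10 genes was followed across 50 mammary gland (MG) tumors of mice that had received insulin or related compounds, namely the MHC class II genes H2-Aa, H2-Ab1, H2-Eb1, H2-DMa, Cd74 and Ciita and the dendritic cell genes Itgax, Flt3, Xcr1 and Batf3. They were chosen by name, with earlier results of these data known but with no rule on their measured values, and all 10 were found among the 37701 genes of the expression table. All tumors came from female p53R270H/+WAPCre mice, in which the WAPCre transgene brings a heterozygous point mutation of p53 to the mammary gland, so that MG tumors form spontaneously. Treatment began at an age of 8 weeks and consisted of subcutaneous injections every other day with vehicle, insulin, glargine, X10 or IGF1, until a tumor measured 1 cm3. Tumors were taken 24 h after the last injection, and each treatment group held 10 tumors, each with its own number in the labels. Glargine and X10 are insulin analogues, and X10 and IGF1 have a high affinity for the IGF1 receptor. The authors sequenced tumors that they had classed as EMT-like, with a latency close to the median of their group. They reported a shorter latency in the X10 and IGF1 groups. In these groups the length of treatment thus cannot be told apart from the compound. The 10 control tumors carried the title untreated and were taken as the vehicle group that the treatment description names.

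MHC class II molecules present peptides from taken-up protein to CD4+ T cells. Each molecule pairs an alpha with a beta chain, is held together during assembly by the invariant chain, and receives its peptide with help of the DM protein. The genes of this pathway share promoter elements and need the coactivator CIITA, which is present in dendritic cells, B cells and activated macrophages. Conventional dendritic cells depend on the receptor FLT3, carry the integrin subunit encoded by Itgax, and include a cross-presenting type (cDC1) that depends on BATF3 and carries the chemokine receptor XCR1. Class II genes and Itgax are also used by macrophages, so that these genes do not mark dendritic cells alone. In bulk tumor RNA, fewer cells of a type and less RNA per cell cannot be told apart.

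The class II chain genes lie together on chromosome 17 of GRCm38, with H2-Aa at 34282744 to 34287823 on the minus strand, H2-Ab1 at 34257689 to 34269419 and H2-Eb1 at 34305867 to 34316674, both on the plus strand. H2-DMa lies nearby at 34119541 to 34139101 on the plus strand. All 10 genes are annotated as protein coding in GENCODE M21. Promoter sequences from RefSeq (GRCm38.p6) were matched for 7 of the 10 genes and for 8 of 11 class II chain, chaperone and editing genes. They were searched on both strands for CCAAT, the letters of the Y box, and AGCAAC, the core of the X box, in the 300 bases from 250 before to 50 after the start of the gene in RefSeq. For H2-DMa this window, 34125268 to 34125567, lay inside the GENCODE gene and not at its start. CCAAT was found in 8 of 8 of these class II genes, against 37.4% of 32851 promoters, and AGCAAC was found in 4 of 8, against 14.8%. Both were found in 4 of 8 class II promoters (H2-Eb1, H2-Eb2, H2-Oa and H2-Ob) and in 5.84% of all promoters. Among the 4 dendritic cell genes, CCAAT was found in Itgax and Xcr1 and AGCAAC in Itgax.

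The windows below show how the letters are placed in a class II alpha chain gene, a beta chain gene and the gene of the regulator H2-Ob, and a dendritic cell gene in which neither was found. Each window holds 130 bases before and 20 bases from the start, written 5′ to 3′ along the gene, with capitals at the X box core and at CCAAT or its reverse complement ATTGG. They lie at chr17:34287804-34287953 (minus strand) for H2-Aa, chr17:34305737-34305886 (plus strand) for H2-Eb1, chr17:34238775-34238924 (plus strand) for H2-Ob and chr5:147400470-147400619 (minus strand) for Flt3.
H2-Aa: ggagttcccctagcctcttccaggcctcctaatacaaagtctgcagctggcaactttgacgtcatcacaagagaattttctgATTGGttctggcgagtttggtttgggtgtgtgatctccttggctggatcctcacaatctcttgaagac
H2-Eb1: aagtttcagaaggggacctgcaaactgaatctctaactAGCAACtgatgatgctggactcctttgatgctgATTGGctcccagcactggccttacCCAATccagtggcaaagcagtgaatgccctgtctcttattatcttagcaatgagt
H2-Ob: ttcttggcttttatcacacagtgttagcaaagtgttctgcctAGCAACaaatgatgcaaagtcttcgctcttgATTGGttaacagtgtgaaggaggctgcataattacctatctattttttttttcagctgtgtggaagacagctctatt
Flt3: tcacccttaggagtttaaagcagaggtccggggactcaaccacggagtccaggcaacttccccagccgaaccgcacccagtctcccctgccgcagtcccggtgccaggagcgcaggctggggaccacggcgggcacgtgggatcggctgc
In H2-Eb1 the X box core began 92 bases before the start and the nearest ATTGG 59 bases before it. H2-Ob held them at 88 and 57 bases, in the same order and on the same strands. H2-Aa held ATTGG at 48 bases and no AGCAAC. Only exact matches were counted, so that a gene without AGCAAC may still hold a variant of the X box.

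RPKM, the deposited unit, is the number of reads per kilobase of gene and per M reads. Library sizes recovered from the steps of the RPKM values lay between 26.6 and 51.9 M reads, with group medians from 35.4 M (X10) to 44.0 M (vehicle). Among the 10 genes, Xcr1 rested on the fewest reads, 1 to 293 per tumor, and Batf3 rested on 15 to 505. The summed level of 7 epithelial keratin and adhesion genes ranged from 11.8 to 5924 RPKM, so that the tumors classed as EMT-like differed widely in these genes. Vehicle_161 stood apart at the low end of the class II genes and IGF1_158 at their high end, and 2 tumors (X10_105 and insulin_8) stood apart in B cell genes. Their values are given with the results that they touch. Tumors are named by treatment and mouse number.

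H2-Ab1, the beta chain of the class II molecule H2-A, varied more within groups than 97.8% of the tested genes. In vehicle tumors the lowest, median and highest levels of H2-Ab1 were 34.3, 499 and 1709 RPKM. The insulin group spanned 78.7 to 2482 RPKM around a median of 1213 RPKM, and the glargine group spanned 150 to 1553 RPKM around 410 RPKM. All 5 groups overlapped widely. X10 tumors ranged from 78.5 to 1649 RPKM with a median of 717 RPKM, and IGF1 tumors from 94.8 to 3789 RPKM with a median of 817 RPKM. The medians followed the order insulin, IGF1, X10, vehicle and glargine, with a ratio of 2.96 between the ends, while the tumors within one group differed by 10.4-fold (glargine) to 49.9-fold (vehicle).

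H2-Aa, the alpha chain that pairs with it, had nearly the same level in every tumor. Its group medians were 517 RPKM in vehicle, 1186 in insulin, 414 in glargine, 704 in X10 and 820 in IGF1 tumors, and its range over all tumors was 32.5 to 3838 RPKM. The ratio of H2-Ab1 to H2-Aa stayed between 0.855 and 1.19, with a median of 1.01, although the level itself varied 118.1-fold. H2-Eb1, the beta chain of the second class II molecule H2-E, was far lower at 0.492 to 57.1 RPKM. The RPKM of H2-Aa was 43.5 to 99.98 times that of H2-Eb1 (median 72.2), so that H2-Eb1 followed the others at a level that is low per length. Its group medians were 7.16, 16.7, 5.68, 12.6 and 9.75 RPKM in vehicle, insulin, glargine, X10 and IGF1. The authors named FVB as the strain closest to these mice, and they aligned reads to GRCm38. The part of strain differences from this reference in the levels of the chain genes was not tested.

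Cd74 (chromosome 18, 60803848 to 60812652, plus strand) encodes the invariant chain and was the highest of the 10 genes, with a median of 726 RPKM over all tumors and a range of 56.9 to 4562 RPKM. Its group medians were 569 (vehicle), 1375 (insulin), 545 (glargine), 845 (X10) and 972 RPKM (IGF1). Cd74 was 0.969 to 1.75 times H2-Aa, and the ratio was highest in vehicle_161, where both were lowest. H2-DMa, a chain of the peptide exchange protein DM, had a median of 46.7 RPKM and a range of 4.12 to 229 RPKM. Its ratio to H2-Aa was looser, since H2-Aa was 4.23 (insulin_37) to 25.3 times (vehicle_197) as high per length. The DM beta chain genes H2-DMb1 and H2-DMb2 had medians of 24.7 and 16.2 RPKM; they are near-identical neighbours, so the split of reads between them is uncertain.

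**Figure D1:**
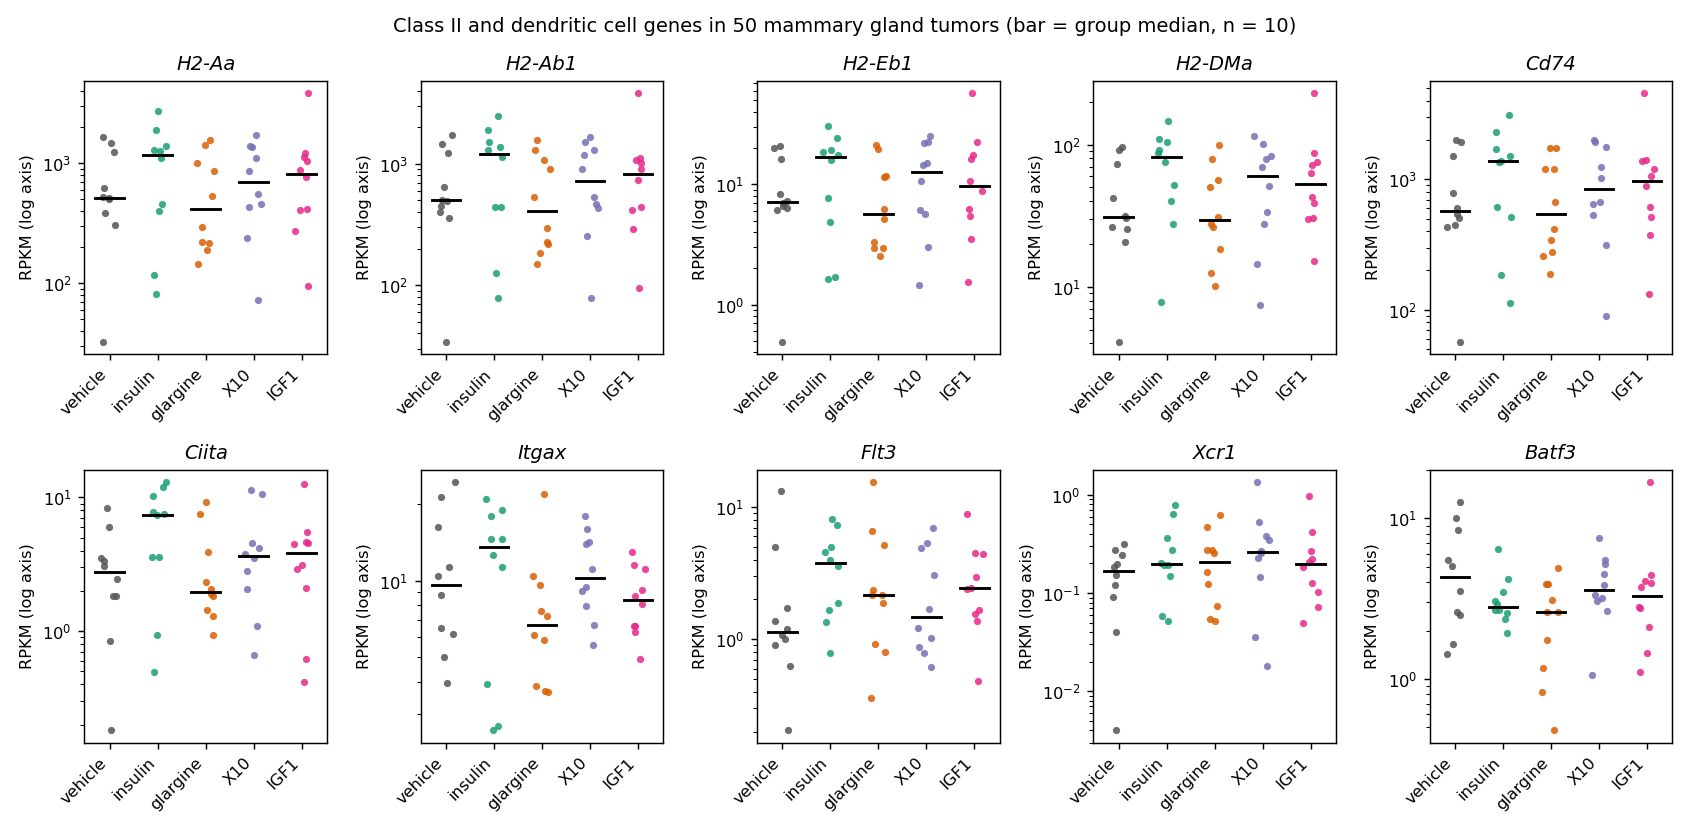
Levels of the 10 genes in each tumor (points) by treatment, in RPKM on a log axis with its own scale per gene; black bars are group medians, n = 10 per group. The groups overlap for every gene, and single tumors, such as the lowest vehicle tumor at 34.3 RPKM of H2-Ab1 and the highest IGF1 tumor at 3789 RPKM, lie farther apart than the medians.

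Ciita (chromosome 16, 10480059 to 10528418, plus strand), the coactivator of class II transcription, was measured at 0.181 to 13.0 RPKM. Levels in vehicle tumors had a lowest, median and highest value of 0.181, 2.76 and 8.40 RPKM, and in insulin tumors of 0.495, 7.42 and 13.0 RPKM. The insulin median was thus the highest and the glargine median, 1.97 RPKM (range 0.942 to 9.24), the lowest. X10 tumors had a median of 3.67 RPKM (0.662 to 11.5) and IGF1 tumors of 3.81 RPKM (0.413 to 12.7). The 2 lowest insulin tumors lay below the vehicle median, and the groups overlapped. The level of H2-Ab1 was 114.6 to 675 times that of Ciita, a spread of 5.90-fold over tumors in which H2-Ab1 itself differed by 110.6-fold.

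Itgax (chromosome 7, 128129547 to 128150657, plus strand), which encodes the integrin subunit CD11c, varied less, from 2.58 to 24.3 RPKM. Its medians were 9.58 (vehicle), 13.5 (insulin), 6.70 (glargine), 10.2 (X10) and 8.38 RPKM (IGF1). The highest tumor was vehicle_182 and the lowest insulin_13, and IGF1 tumors had the narrowest range, 4.94 to 12.9 RPKM. Flt3 (chromosome 5, 147330741 to 147400489, minus strand), the receptor for a growth factor on which dendritic cells depend, had medians of 1.14 (vehicle), 3.79 (insulin), 2.16 (glargine), 1.46 (X10) and 2.44 RPKM (IGF1). The vehicle group held both the lowest Flt3 value, 0.205 RPKM in vehicle_161, and the second highest, 13.3 RPKM in vehicle_189, so its range covered nearly that of the other groups. The highest Flt3 value was 15.4 RPKM in glargine_53, and this tumor had 911 RPKM of H2-Ab1 and 0.074 RPKM of Xcr1.

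Xcr1 (chromosome 9, 123852315 to 123862029, minus strand), the chemokine receptor of cDC1, was the lowest of the 10 genes, between 0.004 and 1.35 RPKM. Its medians were 0.169 (vehicle), 0.198 (insulin), 0.208 (glargine), 0.263 (X10) and 0.198 RPKM (IGF1). Tumors with 1 to a few reads of Xcr1 cannot be placed in order. Batf3 (chromosome 1, 191097847 to 191108945, plus strand), the transcription factor on which cDC1 depend, ranged from 0.478 to 16.8 RPKM and was the only one of the 10 genes with its highest group median in vehicle. Vehicle tumors had a lowest, median and highest Batf3 level of 1.43, 4.31 and 12.6 RPKM, and glargine tumors of 0.478, 2.62 and 4.92 RPKM. Insulin (median 2.81 RPKM), X10 (3.58) and IGF1 (3.28) lay between them, and IGF1_158 was highest of all.

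The comparison of each compound with vehicle asks whether chronic treatment left tumors with other levels of these genes. A total of 9 of the 10 genes had a mean of at least 0.5 RPKM and were tested with 16733 genes in limma on log2(RPKM + 0.5), while Xcr1 with a mean of 0.261 RPKM was not. None of the 9 genes differed from vehicle at a Benjamini-Hochberg adjusted p under 0.05 after insulin, against 0% of all tested genes, and none at an unadjusted p under 0.05, against 11.1% of all tested genes. After glargine likewise none of the 9 passed, against 0% of all genes, and 1 (Batf3) had an unadjusted p under 0.05, against 6.23%. For X10 none of the 9 passed, against 0.0657% of all genes, and for IGF1 none, against 0.00598%. At an unadjusted p under 0.05 the counts for X10 and IGF1 were also 0, against 11% and 8.84% of all genes. The absence of calls did not set these genes apart, since at most 11 of 16733 genes were called in any of these 4 comparisons.

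The fold changes with their intervals show what these groups of 10 could resolve. Ciita after insulin had the smallest adjusted p, 0.484 by limma, with a log2 fold change of 0.89 ± 0.48 (SE) and a 95% confidence interval from -0.07 to 1.85. Flt3 after insulin had a log2 fold change of 0.82 (interval -0.12 to 1.76, limma adjusted p = 0.511) and H2-DMa of 0.81 (-0.22 to 1.84, limma adjusted p = 0.567). The chain genes were estimated less precisely, with a log2 fold change of H2-Ab1 after insulin of 0.47 and an interval from -0.82 to 1.75, and this estimate was 0.04 (-1.18 to 1.25) without vehicle_161. The estimate of Itgax after insulin was -0.01 (-0.68 to 0.66), and it changed sign, still within 0.01 of 0, with another pseudocount or scaling. Batf3 after glargine was -0.85 (-1.54 to -0.16), with an unadjusted p of 0.0163 and a limma adjusted p of 0.789.

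The median log2 fold change of the 9 genes was 0.47 after insulin, -0.13 after glargine, 0.28 after X10 and 0.38 after IGF1, beside 0.03, 0.02, -0.03 and 0.02 over all tested genes. The 4 comparisons share the vehicle tumors, among them vehicle_161 with the lowest class II levels, and single tumors moved these medians in both directions. Without vehicle_161, an alternative chosen after seeing the data, they were 0.05, -0.52, -0.03 and 0.01, beside 0.01, 0.01, -0.05 and 0.00465 over all tested genes. The median after IGF1 was 0.10 without IGF1_158 and 0.69 without IGF1_145. It was 0.80 after insulin without insulin_13, 0.60 after X10 without X10_116 and 0.06 after glargine without vehicle_186. With all tumors the estimate was above 0 for 7 of 9 genes after insulin, 2 of 9 after glargine, 8 of 9 after X10 and 7 of 9 after IGF1, and without vehicle_161 for 7, 1, 3 and 5 of 9. H2-Ab1 turned from 0.28 to -0.15 after X10 and from 0.38 to -0.05 after IGF1 when that tumor was left out, and H2-Aa from 0.26 to -0.18 and from 0.40 to -0.04. Flt3, Ciita and H2-DMa after insulin were 0.65, 0.66 and 0.49 without it. Since the class II genes moved together from tumor to tumor, as given next, these counts repeat one measurement several times. When X10 and IGF1 tumors were set against vehicle, insulin and glargine tumors, none of the 9 genes passed, against 0.155% of all genes, and none had an unadjusted p under 0.05, against 10.5%. The smallest limma adjusted p was then 0.857 (H2-DMa, log2 fold change 0.27). The median of the 9 genes in this comparison was 0.21, and 0.08 without either vehicle_161 or IGF1_158. The F-test for any difference among the 5 groups also called none of the 9, against 0.102% of all genes, with no unadjusted p under 0.05, against 13.1%, and a smallest limma adjusted p of 0.560 for Batf3. With all 35563 genes with a nonzero value in the fit, Xcr1 had log2 fold changes of 0.22, 0.13, 0.29 and 0.16 after insulin, glargine, X10 and IGF1, with limma adjusted p of 0.796, 0.953, 0.539 and 0.975.

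**Figure D2:**
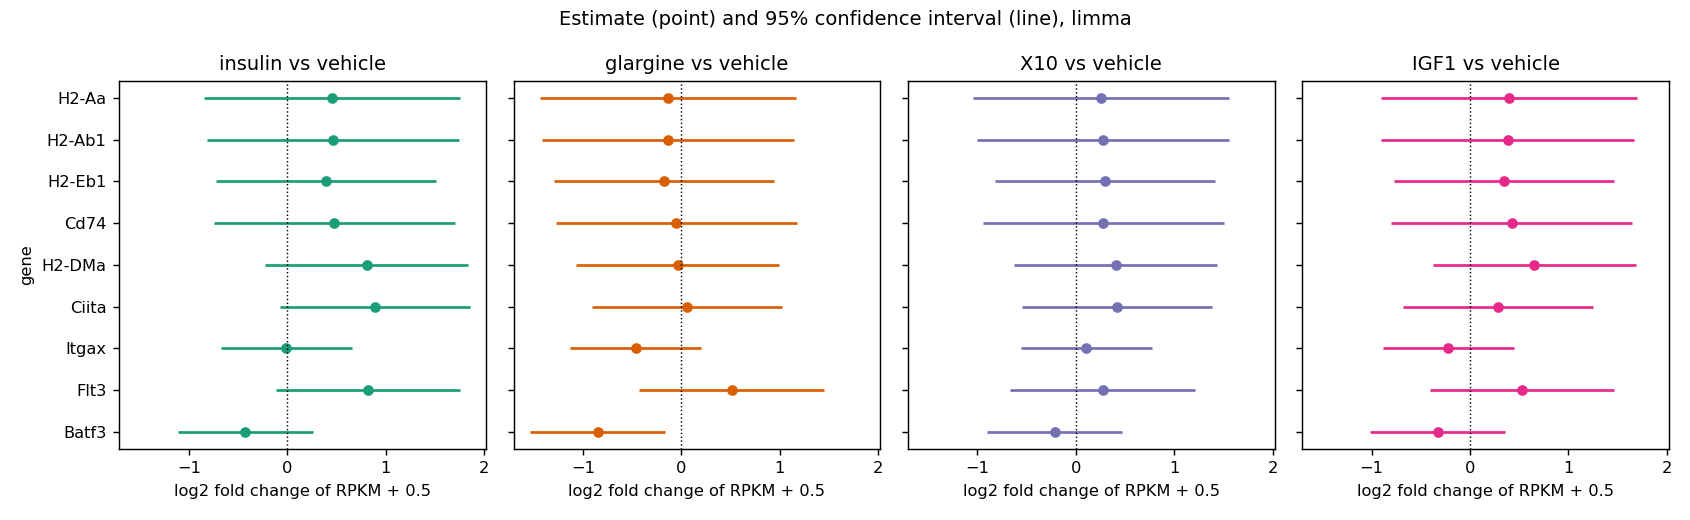
Log2 fold change against vehicle on log2(RPKM + 0.5) for the 9 tested genes and each compound (x axis, log2 units), with points for limma estimates and lines for 95% confidence intervals, n = 10 tumors per group. The intervals include 0 except that of Batf3 after glargine (-1.54 to -0.16), and those of H2-Aa, H2-Ab1 and Cd74 are the widest.

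Most of the variation of these genes was between tumors of one treatment. The within-group SD of log2(RPKM + 0.5) was 1.498 for H2-Aa, 1.48 for H2-Ab1, 1.41 for Cd74, 1.29 for H2-Eb1, 1.19 for H2-DMa and 1.11 for Ciita, against 0.41 for the median tested gene. The SD of Flt3 was 1.07, that of Batf3 0.78 and that of Itgax 0.76. Treatment accounted for 2.51% (H2-Aa) to 12.6% (Batf3) of the variance of the 10 genes on this scale, beside 9.29% for the median tested gene. Xcr1 had an SD of 0.39, but on this scale the pseudocount is above most of its values, so that this understates its relative spread.

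Across tumors the class II genes followed each other closely. After each value was centred on its group mean, the 15 pairs of class II genes had a mean Pearson correlation of 0.95 over the 50 tumors, from 0.88 (H2-DMa with Ciita) to 0.998 (H2-Aa with H2-Ab1). Between the 6 class II genes and the 4 dendritic cell genes the mean of 24 pairs was 0.61, from 0.49 to 0.72. The 4 dendritic cell genes were less alike among themselves, with a mean of 0.34 over 6 pairs, from 0.10 (Flt3 with Xcr1) to 0.57 (Xcr1 with Batf3). The points of each correlation share libraries and depth, and the median over all pairs of tested genes was 0.02 with a 99th percentile of 0.62. Within single treatment groups the correlation of H2-Aa with H2-Ab1 stayed between 0.996 and 0.999, and that of Itgax with Xcr1 ran from -0.15 to 0.50.

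**Figure D3:**
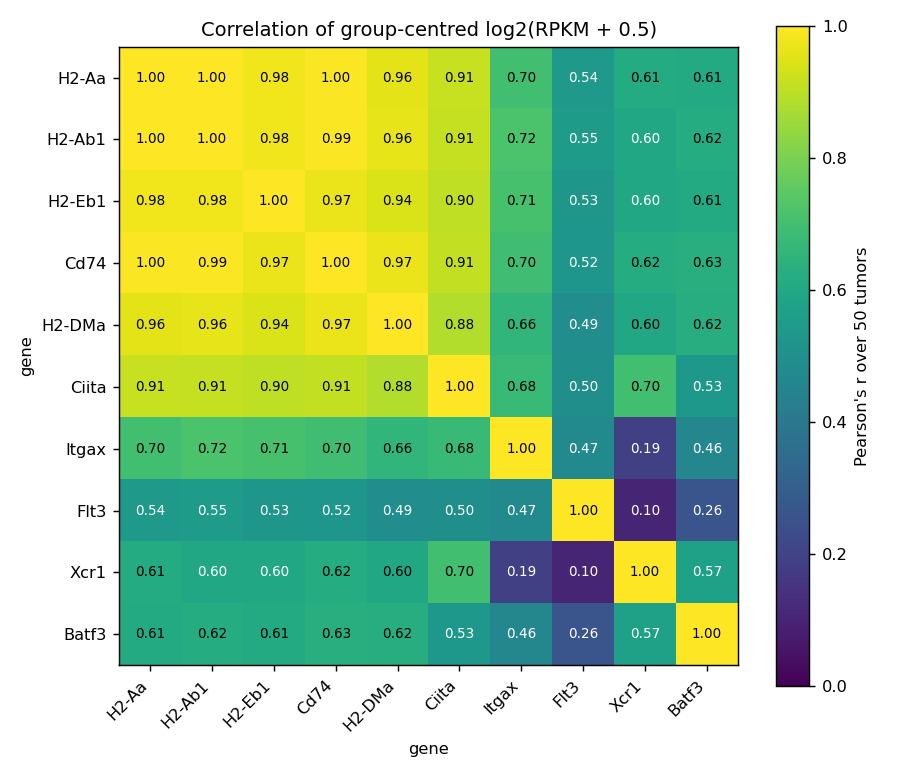
Pearson correlation of log2(RPKM + 0.5), centred on the group mean, for each pair of the 10 genes over 50 tumors; the color scale runs from 0 to 1 and each cell gives its value. The 6 class II genes form a block at 0.88 or above, and the dendritic cell genes have lower values with each other than with the class II genes in most pairs.

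**Figure D4:**
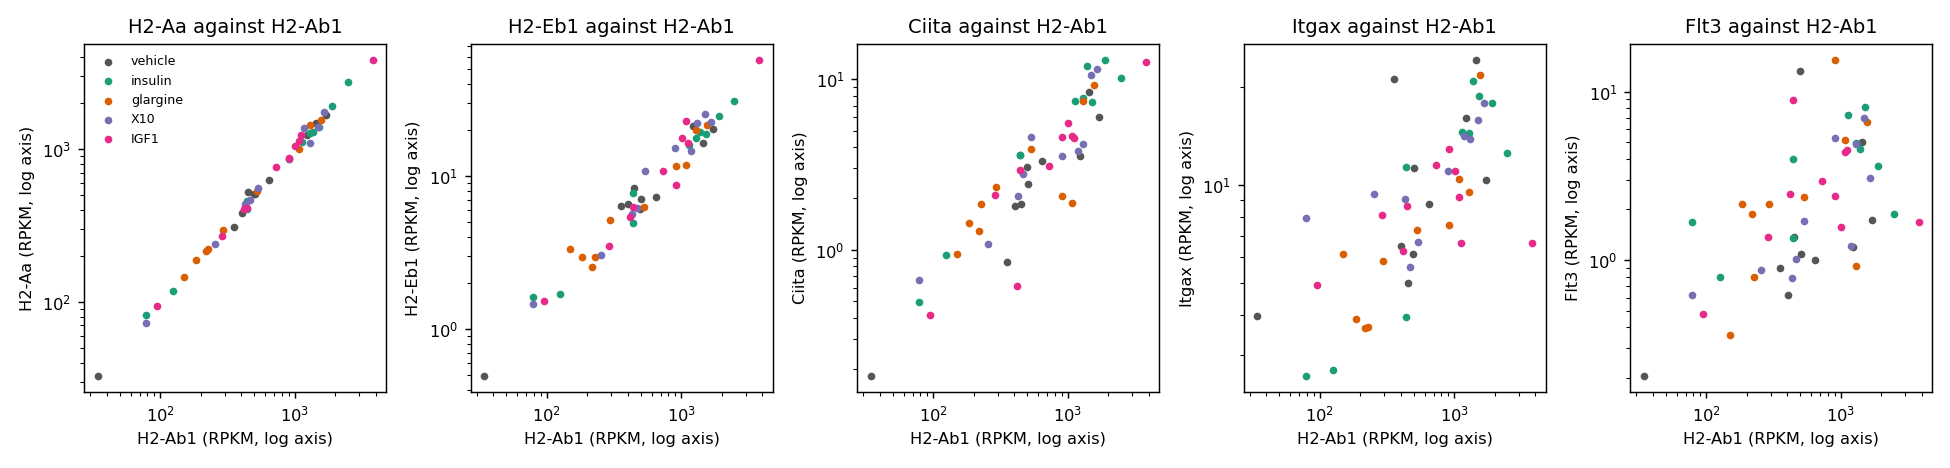
Level of H2-Aa, H2-Eb1, Ciita, Itgax and Flt3 (y axis, RPKM, log axis) against that of H2-Ab1 (x axis, RPKM, log axis) in each of 50 tumors, colored by treatment. H2-Aa lies on a line over the 110.6-fold range of H2-Ab1, Ciita scatters moderately, and Itgax and Flt3 scatter widely.

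The tumors at the ends show this in single values. Vehicle_161 was lowest of all 50 tumors in H2-Aa, H2-Ab1, H2-Eb1, H2-DMa, Cd74, Ciita and Flt3, and it had a single read of Xcr1. It was also last of 50 in the summed levels of macrophage genes (478 RPKM), T and NK cell genes (4.95 RPKM) and pan-leukocyte genes (352 RPKM), and of the dendritic cell lists in those of pan conventional dendritic cell (37.1 RPKM), cDC1 (84.7 RPKM) and cDC2 genes (236 RPKM). It was not last in genes of mature or of plasmacytoid dendritic cells. There the lowest vehicle tumors had 506 and 137 RPKM, above the lowest insulin (386 RPKM) and IGF1 tumors (97.0 RPKM). The part of these cells in the low class II levels of vehicle_161 was not tested. IGF1_158 was first in H2-Aa, H2-Ab1, H2-Eb1, H2-DMa, Cd74 and Batf3, with 3838 RPKM of H2-Aa, and first in summed macrophage genes (3917 RPKM), pan conventional dendritic cell genes (323 RPKM) and cDC1 genes (394 RPKM). It was second of 50 in cDC2 genes (983 RPKM), in Xcr1 (0.963 RPKM) and in Ciita (12.7 RPKM). The first 2 dendritic cell lists include members of the set (Flt3, Itgax and Batf3, and Xcr1 and Batf3). IGF1_158 was not first in genes of mature or of plasmacytoid dendritic cells. There the highest IGF1 tumors had 901 and 347 RPKM, under the highest insulin (1043 RPKM) and vehicle tumors (621 RPKM). In IGF1_158 Itgax was 6.65 RPKM and Flt3 1.68 RPKM, both under the median of all tumors (9.13 and 1.88 RPKM), and the epithelial genes were lowest of 50. The ratio of H2-Ab1 to Itgax was accordingly lowest in vehicle_161 (8.64) and highest in IGF1_158 (570), with a median of 73.2. Of the 10 tumors highest in H2-Ab1, 8 were also among the 10 highest in Ciita, 7 in Itgax, 5 in Xcr1, 5 in Batf3 and 4 in Flt3. Of the 10 lowest in H2-Ab1, 8 were among the 10 lowest in Ciita, 7 in Itgax, 6 in Xcr1, 7 in Batf3 and 7 in Flt3.

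The genes most like each class II gene were other class II genes. Over the 50 tumors the closest tested genes (mean of at least 0.5 RPKM) outside the 10 were H2-DMb1, H2-DMb2 and the pseudogene H2-Ea-ps for H2-Aa, H2-Ab1, H2-Eb1, H2-DMa and Cd74, with correlations from 0.94 to 0.99. For Ciita they were H2-Ea-ps (0.94), Plbd1 (0.93) and H2-DMb1 (0.90). The other class II transcription factors followed less closely, with correlations of H2-Ab1 with Rfx5, Rfxank, Rfxap, Nfya, Nfyb, Nfyc and Creb1 from 0.04 (Nfyb) to 0.40 (Nfyc). For Ciita they ran from 0.11 (Nfyb) to 0.58 (Rfx5), and Flt3 correlated with Nfyc at 0.53. Among genes of antigen processing, H2-Ab1 correlated with Ctss, the protease that trims the invariant chain, at 0.78, and with Ctsl at -0.23. Itgax was closest to its neighbouring paralog Itgad (0.94), for which reads may be split between the genes, then to Amz1 (0.82) and Sh2d1b1 (0.79). Flt3 had no close partner, its first being Asgr2 (0.71), Stk32b (0.71) and Ccl17 (0.69). Batf3 was nearest to Smagp (0.76), Ctsh (0.76) and Gm5398 (0.75), and Xcr1, among the tested genes, to Clec2i (0.86), BC035044 (0.86) and Btla (0.86).

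The other dendritic cell markers differed widely in level. Clec9a, a receptor of cDC1, had a median of 0.114 RPKM and was 0 in 1 tumor, and Zbtb46, a transcription factor of conventional dendritic cells, had a median of 3.96 RPKM. Irf8 (median 90.7 RPKM), Naaa of the cDC1 list (29.1 RPKM) and Mgl2 of the cDC2 list (26.9 RPKM) were higher, and macrophages use Irf8 and Mgl2 as well. Xcr1 and Clec9a correlated at 0.91 over the 50 tumors, both at few reads. Xcr1 also followed Wdfy4 (0.84), which cDC1 need for cross-presentation, and Irf8 (0.72), while Flt3 did so less (0.24 and 0.30). With the 6 cDC1 genes the median of Xcr1 was 0.67, from -0.07 (Cadm1) to 0.84 (Wdfy4). For Flt3 the median was 0.29, from 0.04 (Tlr3) to 0.49 (Itgae). With Cadm1 the order was reversed, at 0.28 for Flt3. H2-Ab1 correlated at a median of 0.75 with 6 cDC1 genes, from 0.04 (Cadm1) to 0.81 (Naaa). With 7 cDC2 genes the median was 0.64, from -0.32 (Klf4) to 0.90 (Mgl2), and with 11 genes of mature dendritic cells 0.75, from -0.32 (Cacnb3) to 0.87 (Cd86). The lists of dendritic cells thus held genes that did not follow H2-Ab1. With other leukocyte lists its median was 0.49 for 12 macrophage genes, from -0.05 (Cd68) to 0.78 (C1qa), and 0.59 for 11 T and NK cell genes, from -0.40 (Prf1) to 0.85 (Klrb1c). The median with 4 pan-leukocyte genes, 0.64, was the same as with the cDC2 genes, and it was 0.34 with 6 B cell genes and -0.04 with 7 epithelial genes. The lists overlap in the cells that use their genes (Mgl2 and Cd86 are also used by macrophages), and which cells carried the class II RNA was not tested.

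**Figure D5:**
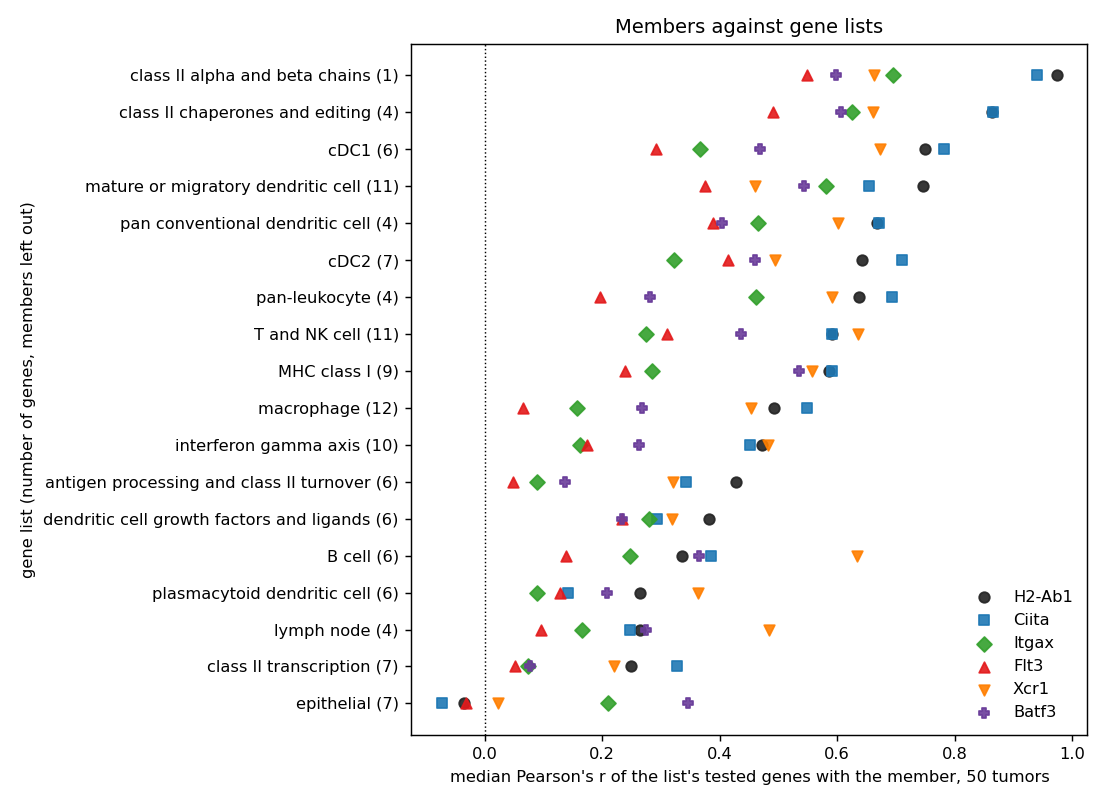
Median Pearson correlation (x axis) of H2-Ab1, Ciita, Itgax, Flt3, Xcr1 and Batf3 with the tested genes of each list (y axis, number of genes in brackets), group-centred log2(RPKM + 0.5), 50 tumors. H2-Ab1 and Ciita lie highest with the lists of class II chains and of class II chaperones and near 0 with epithelial genes, Flt3 lies low with macrophage genes (0.06), and Xcr1 has 0.63 with B cell genes, and 0.39 without X10_105 and insulin_8.

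X10_105 and insulin_8 held 265 and 168 RPKM of summed B cell genes, against 18.7 RPKM in the next tumor and a median of 1.61 RPKM. Their lymph node genes (Ccl21a, Ccl19, Cxcl13, Madcam1 and Glycam1) summed to 555 and 644 RPKM, against a median of 5.27 RPKM. The same tumors had the highest Xcr1 (1.35 RPKM, X10_105) and the highest Ciita (13.0 RPKM, insulin_8), and H2-Ab1 of 1649 and 1892 RPKM. Without them the median correlation of Xcr1 with B cell genes was 0.39, against 0.63 with them, and its closest genes became Chp2 (0.85), Btnl2 (0.83) and Rcsd1 (0.81). The 3 closest genes of the 6 class II genes, of Itgax and of Batf3 were the same without these tumors, and the choice of these tumors was made after their values were seen. Their part in the level of Xcr1 and Ciita was not tested.

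Markers of other leukocytes were compared in the same way. None of 12 macrophage genes passed the adjusted threshold of limma after insulin (smallest adjusted p = 0.198), but 8 of 12 had an unadjusted p under 0.05, against 11.1% of all tested genes, and the median log2 fold change was 0.68. After IGF1 6 of 12 had an unadjusted p under 0.05, against 8.84% of all genes, with a median of 0.67, and the counts after glargine and X10 were 2 and 3, against 6.23% and 11%. Without vehicle_161 the counts of macrophage genes were 4 after insulin, 1 after glargine, 1 after X10 and 3 after IGF1, against 8.73%, 4.67%, 9.85% and 7.53% of all tested genes, with medians of 0.53, 0.33, 0.13 and 0.52. Summed macrophage genes ranged from 478 to 2857 RPKM in vehicle, 602 to 3518 in insulin, 836 to 2489 in glargine, 699 to 1955 in X10 and 1133 to 3917 in IGF1 tumors. All 4 pan-leukocyte genes had an unadjusted p under 0.05 after insulin, with a median log2 fold change of 0.52, and none after the other compounds, while without vehicle_161 the count after insulin was 2 of 4. No gene of the 18 lists passed the adjusted threshold in any comparison. Of the 7 cDC2 genes, 1 after insulin, 2 after glargine and 1 after IGF1 had an unadjusted p under 0.05, and of the 7 tested cDC1 genes, 1 after insulin (Wdfy4) and 1 after glargine, which was Batf3 itself, beside 11.1% (insulin), 6.23% (glargine) and 8.84% (IGF1) of all tested genes. Without vehicle_161 the cDC2 counts were 1 after insulin, 1 after glargine and 0 after IGF1. Of the 6 plasmacytoid dendritic cell genes, 2 after insulin and 1 after each other compound had an unadjusted p under 0.05, against 11% of all tested genes for X10. These were Bst2 after insulin, glargine and X10 (log2 fold changes of -1.35, -1.29 and -1.26) and Ly6d after insulin and IGF1 (-1.70 and -2.10), and neither gene is used by these cells alone. The median log2 fold change of the 6 genes was 0.07 after insulin, 0.06 after glargine, -0.18 after X10 and -0.36 after IGF1. Without vehicle_161 it was -0.02, -0.07, -0.33 and -0.51. Epithelial genes had a median log2 fold change of -0.73 after insulin, -0.39 after glargine, -0.23 after X10 and -1.46 after IGF1, with 2, 1, 0 and 4 of 7 at an unadjusted p under 0.05 and none past the adjusted threshold. The part of these cells in the estimates for class II genes was not tested.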

How the data were processed

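Poly-A selected RNA of 50 MG tumors was sequenced on the Ion Proton. The authors aligned reads to GRCm38 with TopHat2 2.0.10 and Bowtie2 and counted them per gene with HTSeq 0.6.1. In a separate step with DEXSeq, the authors divided read counts by library size and gene length, and the deposited values are these RPKM. The authors' own tests with DESeq2 1.2.10 were not repeated, since the table holds no counts. Every column was assigned to a tumor by its title. The 10 genes and the lists were chosen with earlier results of these data known.

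Each gene with a mean of at least 0.5 RPKM (16733 of 37701) entered a two-sided limma fit (version 3.58.1, R 4.3.3) of log2(RPKM + 0.5) with the 5 groups in 1 fit, an intensity trend and Benjamini-Hochberg adjustment over all tested genes. Fold changes are on this scale and are understated for low genes. Each tumor has its own number in the labels, taken as a separate mouse, and p-values measure the spread between these tumors. Correlations were computed on group-centred values and carry no test, with Python 3.11.15 and numpy 2.4.6. Library sizes were recovered from the steps of RPKM values of 1402 genes, of which 94.3% to 100% per tumor came out as whole reads. No 2 tumors had identical values, since the highest correlation between tumors was 0.982 (insulin_21 with glargine_70). The plan was to name beside the 10 genes all list genes past the threshold, of which there were none. It also named, for each gene, the 3 tested genes with the highest correlation. Other list genes were named after their values were seen. Gene positions came from GENCODE M21. The limma step and the library size step were tested on simulated data. Alternatives were other pseudocounts, filters, scalings, covariates and each tumor left out.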

Additional observations from a re-analysis of the deposited data

Results flagged for a closer look

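A total of 7 values lay far from the other tumors of their group, measured as the gap to the nearest tumor over the whole range of the group on the scale of log2(RPKM + 0.5), out of 50 combinations of gene and group; chance flags about 1 in 20 groups. Vehicle_161 was such a low tumor on that scale, given here in RPKM, for H2-Aa (32.5 RPKM, next 309), H2-Ab1 (34.3, next 354), H2-Eb1 (0.492, next 6.08), H2-DMa (4.12, next 20.7) and Cd74 (56.9, next 430). These 5 genes move together, so that they describe 1 tumor and not 5 separate events. IGF1_158 was such a high tumor for Xcr1 (0.963 RPKM, next 0.422) and Batf3 (16.8 RPKM, next 4.47).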

How the results depend on the processing

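No member of the set passed the adjusted threshold in any of the 6 comparisons under any alternative, whether 1 of the 50 tumors was left out or another pseudocount, filter, scaling, trend or covariate was used. With 1 tumor left out, the smallest limma adjusted p of the genes was 0.269 to 0.694 for insulin, 0.535 to 0.996 for glargine, 0.603 to 0.902 for X10, 0.544 to 0.882 for IGF1, 0.738 to 0.914 for X10 and IGF1 against the rest and 0.416 to 0.718 for any difference. Single tumors decided the direction of many fold changes: of 45 estimates, 15 turned when 1 of the 50 tumors was left out and 9 turned without vehicle_161. H2-Ab1 ranged from 0.04 to 0.82 after insulin (without vehicle_161 and insulin_13), -0.57 to 0.06 after glargine (vehicle_161, vehicle_186), -0.15 to 0.60 after X10 (vehicle_161, X10_116) and -0.05 to 0.69 after IGF1 (vehicle_161, IGF1_145). At an unadjusted p under 0.05 the count of the 9 genes after insulin was 0 with all tumors, against 11.1% of all tested genes. It was 2 without insulin_13, insulin_37 or vehicle_182, against 12.7%, 10.4% and 11.2%. Without vehicle_186 or vehicle_189 it was 1, against 12.2% and 13.6%. Of 300 log2 fold changes recomputed in 7 settings other than single tumors left out, 295 kept their direction, and the 5 that turned lay near 0: Itgax after insulin was 0.00299 with a pseudocount of 1 and 0.00377 with upper quartile scaling, Ciita after glargine -0.0133 and Flt3 in X10 and IGF1 against the rest 0.0120 with quantile normalization, and Ciita in the latter comparison -0.00349 without X10_105 and insulin_8. With quantile normalization the mean correlation was 0.65 over all pairs of the 10 genes (0.69 as reported), 0.25 over dendritic cell pairs and 0.56 between class II and dendritic cell genes; the cause was not tested. Leaving out 1 tumor gave 0.67 to 0.70 over all pairs, 0.95 to 0.96 over class II pairs, 0.31 to 0.38 over dendritic cell pairs and 0.59 to 0.63 between them. Library size as a covariate, leaving out these 2 tumors and the fold changes without single tumors were chosen after seeing the data. No paired analysis was possible because the groups share no mouse numbers. Xcr1, with 1 to 293 reads per tumor, is limited most by depth.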

Other observations

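Genes of MHC class I presentation and of the interferon gamma axis, which is known to induce CIITA, were measured in the same tumors. None of 9 class I genes passed the adjusted threshold of limma against vehicle for any compound, with 0, 0, 1 and 0 of them at an unadjusted p under 0.05 after insulin, glargine, X10 and IGF1, against 11.1%, 6.23%, 11% and 8.84% of all tested genes. Their median log2 fold changes were -0.00026, -0.19, -0.24 and -0.23, while those of the class II chains were 0.45, -0.14, 0.29 and 0.39. Without vehicle_161 the class I medians were -0.08, -0.38, -0.45 and -0.32 and those of the class II chains 0.05, -0.54, -0.09 and -0.01. Across tumors H2-Ab1 correlated with H2-K1 at 0.72 and with Nlrc5, the class I counterpart of Ciita, at 0.54. Among 10 tested interferon gamma genes, H2-Ab1 correlated most with the receptor gene Ifngr1 (0.72), and with Irf1 at 0.46. Ifng itself was under the filter on low values, with a median of 0.079 RPKM, and correlated with H2-Ab1 at 0.42. None of the 10 tested genes passed the adjusted threshold against vehicle, and 1 had an unadjusted p under 0.05, after IGF1, against 8.84% of all tested genes. Without vehicle_161 the counts at an unadjusted p under 0.05 were 3, 3, 2 and 2 after insulin, glargine, X10 and IGF1, against 8.73%, 4.67%, 9.85% and 7.53% of all tested genes. The median log2 fold changes of the 10 genes were -0.27, -0.35, -0.30 and -0.13 with all tumors and -0.32, -0.43, -0.39 and -0.27 without vehicle_161.

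Flt3l, the ligand of FLT3, correlated with Xcr1 at 0.72 and with Flt3 itself at 0.18 over the 50 tumors. Xcl1, a ligand of XCR1, correlated with Xcr1 at 0.43. Csf2, a growth factor of myeloid cells, correlated with Itgax at 0.67 and with Xcr1 at -0.13. These are descriptions over points that share libraries.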
